A study of Mus musculus with 12 samples.

Results

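The 4 APT121 samples are pools of anterior prostate RNA from mice with prostatic intraepithelial neoplasia (PIN) lesions, and the question here is which genes were alike and which differed between them. They are 4 of the 12 arrays of the series, chosen by their genotype label, and the other 8 arrays, of wild type pools, serve as the reference for ordinary spread. APT121 mice express T121, a fragment of the SV40 large T antigen that inactivates pRb and its relatives, from the probasin promoter, which is active in prostate epithelium. All mice of both groups were males of 12 weeks, of the F3 generation of a cross of C57BL/6J with DBA/2, that ate the AIN93G diet from 3 weeks of age, and the wild type samples are labelled normal. Each pool joins equal amounts of RNA from 2 mice, so the APT121 arrays stand for 8 mice and the wild type arrays for 16. Each pool was read on 1 array, so a difference between any 2 particular pools has no test of its own. A value that sets a pool apart may come from 1 of its mice, and this was not tested.

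The anterior prostate is a gland whose luminal cells secrete proteins into the ejaculate, among them the transglutaminase that helps to form the copulatory plug. pRb and its relatives hold the E2F transcription factors in check, and cells that lose them copy their DNA and divide. PIN is a lesion in which luminal cells pile up inside the gland and often lose their secretory program.

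Levels are given as log2 of the deposited RMA intensity, and spread as the standard deviation (SD) of these log2 values over pools. As a check of the labels, the proliferation marker Mki67 was at 9.70, 10.13, 10.03 and 9.41 in APT121 pools 1 to 4 and between 4.90 and 5.48 in the wild type pools. The luminal keratin Krt8 was at 11.47, 11.55, 11.55 and 11.62 in the APT121 pools, and the prostate secretory gene Pbsn was at 9.03 or more in each. Among the wild type arrays, the mean of the adipose markers was highest in arrays 5 and 7 (6.44 and 6.80, against 5.31 to 5.98), and that of the seminal vesicle markers in array 6 (7.21, against 3.36 to 3.74). Pairs of wild type arrays within 1 to 4 or within 5 to 8 differed 2-fold in 23 to 66 genes, and pairs across these sets in 87 to 125. The wild type spread is therefore also given without arrays 5, 6 and 7 where it matters. That setting keeps array 8, which differed 2-fold from arrays 1 to 4 in 87 to 104 genes. It therefore does not remove the difference between the sets. A bulk sample cannot tell fewer cells of a type from less RNA per cell.

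Over 19935 genes, the median spread was of a like size in both genotypes. The median SD was 0.12 over the APT121 pools and 0.14 over the wild type pools, or 0.13 without wild type arrays 5, 6 and 7 and 0.12 within wild type arrays 1 to 4 and within arrays 5 to 8. The SD was higher among APT121 pools for 8063 genes. The genes that did differ formed a small group: 291 genes (1.46%) had a range of 1 or more on the log2 scale, a 2-fold difference, between the highest and the lowest APT121 pool. The same held for 473 genes (2.37%) over the 8 wild type pools, where a wider range comes with more arrays, and 63 genes met it in both groups. An SD of 0.5 or more was seen for 194 genes among the APT121 pools and 158 among the wild type pools. With the genes split by level into 4 sets of equal size, the median SD over the APT121 pools was 0.11, 0.15, 0.13 and 0.10 from the lowest to the highest set, and the 2-fold genes numbered 23, 103, 99 and 66.

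Whether a gene's spread differed between the genotypes was tested across all genes in 2 ways. The first, limma on each array's absolute deviation from its genotype mean, called 81 genes more variable among the APT121 pools (0.406%) and 21 less variable (0.105%) at an adjusted p of 0.05. A variance ratio test, added after the data were seen because it made fewer false calls on simulated data, divides the APT121 variance by the wild type variance, which limma first moderates across genes. It called 63 genes more variable among the APT121 pools (0.316%) and 1 less variable (0.00502%), and 21 genes were called more variable by both. All 63 had a 2-fold range among the APT121 pools. Adjusted p-values below come from the variance ratio test unless the deviation fit is named. Of the genes named below, the deviation fit did not call Abcg2, Slco2a1, Ly6f, Kcnj16, Nr4a3, Fgl1, Fut9, Gsdma, Fcrls, C1s1 or Glb1l3. Nor did it call Scnn1a, Wfdc2, Birc5, Lyz2, Iigp1, Dcn, Fbln2 or Pgm5.

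These counts lean on single pools. Without APT121 pool 1, 2, 3 or 4, the variance ratio called 86, 56, 28 or 22 genes more variable, and the deviation fit 120, 15, 10 or 9. The 2-fold genes then numbered 252, 218, 162 and 135. Leaving out wild type pool 5 left 36 calls by the variance ratio, without wild type arrays 5, 6 and 7 together 40, and leaving out pools 3, 5, 7 or 8 left 41, 50, 47 or 46 by the deviation fit. The less variable calls of the deviation fit fell to 5, 2 or 3 without APT121 pool 2, 3 or 4, and to 11 or 12 without wild type pool 3 or 8.

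**Figure D1:**
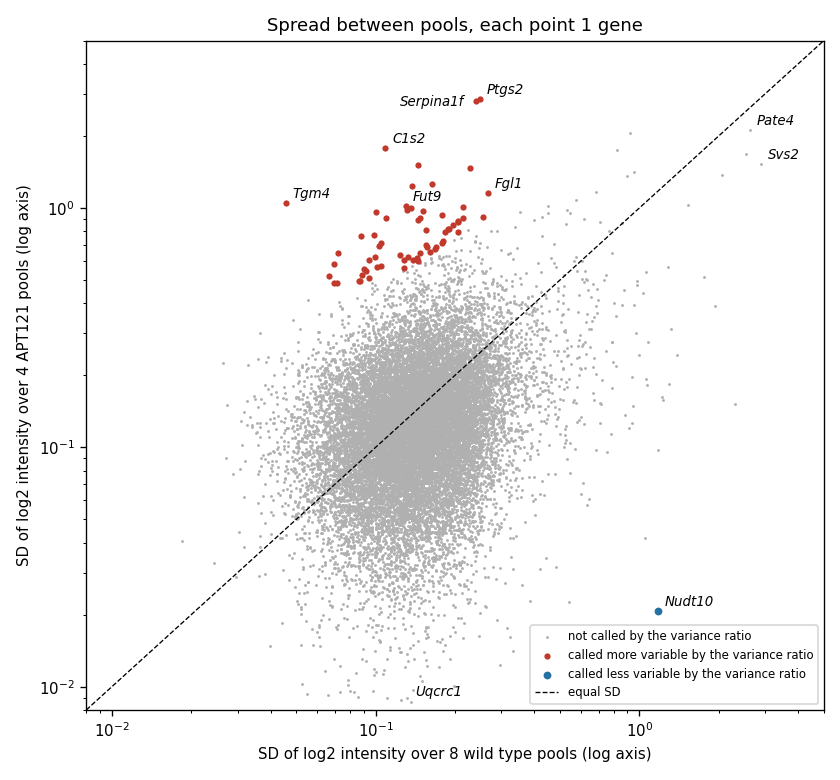
Each point is 1 of 19935 genes, with the SD of its log2 intensity over the 8 wild type pools on the x axis and over the 4 APT121 pools on the y axis, both on log axes. Red points are the 63 genes called more variable among APT121 pools by the variance ratio and the blue point is Nudt10; Tgm4 and C1s2 have a high SD among APT121 pools and a low one among wild type pools, while Svs2 and Pate4 vary in both groups.

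The pools were not equally far apart. Pools 3 and 4 differed 2-fold or more in 184 genes, of which 78 were higher in pool 3 and 106 higher in pool 4. Pools 2 and 4 differed in 118 genes, pools 1 and 3 in 81, pools 1 and 2 in 58, pools 2 and 3 in 54 and pools 1 and 4 in 49. The 28 wild type pairs ranged from 23 to 125 genes, so the distance between pools 3 and 4 lay above every wild type pair. Of the 291 genes with a 2-fold range, 88 were highest in pool 4 and lowest in pool 3, and 55 were highest in pool 3 and lowest in pool 4. Pool 2 stood farthest from the others on the high side for 40 genes and pool 1 on the low side for 20. Over all 19935 genes, 3800, 5045, 5240 and 5850 were highest in pools 1 to 4, and 3951, 4977, 5969 and 5038 lowest. The counts of highest and lowest pools in the lists below stand against these. The named genes below follow these patterns: a few genes of pool 2, Svs2 and a few genes like it that were low in pool 1, and genes that separate pool 3 from pool 4 in either direction.

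**Figure D2:**
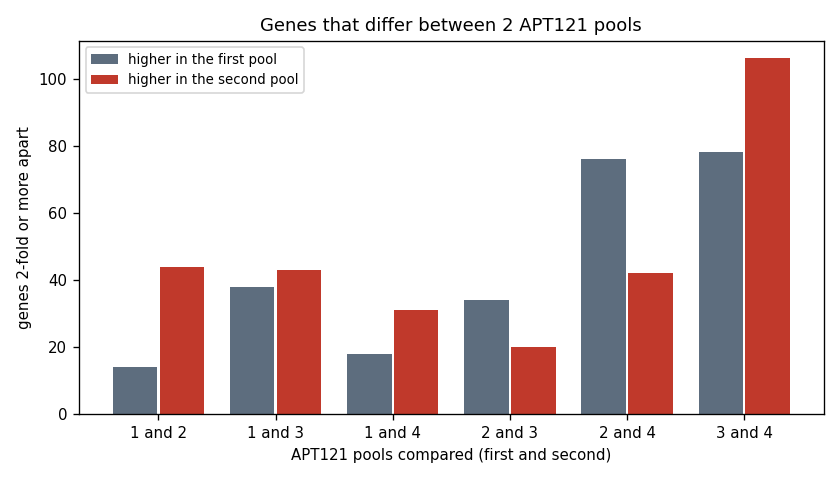
Bars count the genes that differ 2-fold or more (1 or more on the log2 scale) between 2 APT121 pools, grey for genes higher in the first pool named and red for genes higher in the second. The tallest bars are those of pools 3 and 4, with 78 and 106 genes.

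The largest spread among the APT121 pools belonged to a pair of genes that were high in pool 2 alone. Ptgs2, the inducible cyclooxygenase that starts prostaglandin synthesis, was at 4.29, 10.07, 4.49 and 4.39 in pools 1 to 4, a 54.8-fold range. Serpina1f, a member of the serpin family of protease inhibitors, was at 3.35, 9.05, 3.62 and 3.34, a 52.1-fold range. The other pools lay within 0.28 of each other for Serpina1f and 0.20 for Ptgs2, and Ptgs2 ran from 4.20 to 5.08 in the wild type pools. Both had an adjusted p of 1.87e-06, and of 0.0452 (Ptgs2) and 0.0453 (Serpina1f) in the deviation fit. Both calls of the deviation fit were lost without any 1 wild type pool (0.0654 to 0.0849 for Ptgs2, 0.067 to 0.0849 for Serpina1f), and 8 of 25 alternatives kept each. Without pool 2 both calls of the variance ratio were lost (adjusted p 0.924 and 0.993), and so were those of the other genes of this group.

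By the Euclidean distance between their deviations in the 4 pools, Serpina1f was the nearest of 178 candidate genes to Ptgs2, at 0.14. The next were Abcg2, at 2.39, and Slco2a1, at 2.77. Slco2a1, a transporter that carries prostaglandins into cells, was at 5.80, 8.59, 6.21 and 6.29 (adjusted p 0.000314). Abcg2, an efflux pump of the cell membrane, was at 4.36, 7.32, 4.60 and 4.23 (adjusted p 0.000621). Pool 2 was the high pool in each case, and the other 3 lay close together. Without pool 2 the adjusted p was 0.828 for Slco2a1 and 0.988 for Abcg2.

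Narrower ranges of the same pattern were seen for Ly6f, at 4.51, 6.25, 4.25 and 4.25, and the potassium channel gene Kcnj16, at 3.30, 4.88, 3.27 and 3.44, with adjusted p-values of 0.000319 and 0.00183 (0.941 and 0.992 without pool 2). Nr4a3, an orphan nuclear receptor induced early by many stimuli, was at 4.92, 6.36, 4.90 and 5.24 (adjusted p 0.0414). That call was lost without APT121 pool 2 (0.958) or 3 (0.0681) and without wild type pool 1, 2, 3, 4, 5, 7 or 8 (0.0602 to 0.0821). The desaturase Fads2 was at 8.90, 9.72, 8.93 and 8.93 and was not called (adjusted p 0.429). Of 34 prostaglandin and acute inflammation genes, Ptgs2 was the only 1 with a 2-fold range (2.94%, against 1.46% of all genes). A range under 0.5 was seen for 29 (85.3%), near the 87.1% of all genes. The median SD was 0.14 against 0.12 over all genes, and 23 of the 34 lay below the median gene. Of 29 immediate early and heat shock genes, 13 were highest in pool 2 and 2 (6.9%, against 1.46% of all genes) had a 2-fold range.

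Markers of neighbouring organs were looked at beside these genes, because Serpina1f is in the list of epididymis and vas deferens genes. Of the 22 members of that list, 3 had a 2-fold range and 3 were highest in pool 2, Serpina1f included. The mean of the list was 3.88, 4.15, 3.94 and 3.96 in pools 1 to 4, and 3.90, 3.92, 3.95 and 3.98 over the 21 members other than Serpina1f, so the high mean of pool 2 rests on that gene. In all, 20 of the 22 members lay below the median gene. Crisp4, an epididymal secretory gene, stayed at 2.59, 2.58, 2.56 and 2.58. The part of such tissue in the values of pool 2 was not tested otherwise.

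Promoters of these genes are shown because Ptgs2, Serpina1f and Slco2a1 shared the high value in pool 2, together with Tgm4, an anterior prostate gene that was highest in pool 3 and lowest in pool 4. They are RefSeq windows on GRCm38.p6 of 250 bases before to 50 after the start of the gene: chr1:150099781-150100080 for Ptgs2 (plus strand), chr12:103695480-103695779 for Serpina1f (minus strand), chr9:103008237-103008536 for Slco2a1 (plus strand) and chr9:123034491-123034790 for Tgm4 (plus strand). Capitals mark the motifs found.
Ptgs2: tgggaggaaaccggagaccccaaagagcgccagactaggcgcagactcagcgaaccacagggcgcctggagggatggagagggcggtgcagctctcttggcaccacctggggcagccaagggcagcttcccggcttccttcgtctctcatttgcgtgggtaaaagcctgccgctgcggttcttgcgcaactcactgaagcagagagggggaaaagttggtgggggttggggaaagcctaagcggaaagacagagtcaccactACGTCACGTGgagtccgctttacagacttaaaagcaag
Serpina1f: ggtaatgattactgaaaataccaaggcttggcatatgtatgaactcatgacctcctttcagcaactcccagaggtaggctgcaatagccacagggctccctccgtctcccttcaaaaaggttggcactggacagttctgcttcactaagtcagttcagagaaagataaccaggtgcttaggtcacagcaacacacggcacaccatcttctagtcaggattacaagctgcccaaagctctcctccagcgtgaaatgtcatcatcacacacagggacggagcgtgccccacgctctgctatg
Slco2a1: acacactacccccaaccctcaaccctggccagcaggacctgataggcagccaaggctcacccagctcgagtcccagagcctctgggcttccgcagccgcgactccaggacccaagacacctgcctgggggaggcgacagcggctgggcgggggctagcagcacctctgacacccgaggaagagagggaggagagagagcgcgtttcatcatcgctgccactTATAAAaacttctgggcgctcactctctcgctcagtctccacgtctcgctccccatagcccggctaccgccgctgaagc
Tgm4: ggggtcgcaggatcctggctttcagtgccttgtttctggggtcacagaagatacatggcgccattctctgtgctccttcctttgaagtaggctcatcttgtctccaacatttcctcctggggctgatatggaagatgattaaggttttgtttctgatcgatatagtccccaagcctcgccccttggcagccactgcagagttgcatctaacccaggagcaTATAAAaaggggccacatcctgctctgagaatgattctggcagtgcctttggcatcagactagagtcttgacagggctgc
Motifs searched were TATAAA on the strand of the gene and CACGTG (an E-box), TGACGT (a half-site of cyclic AMP response elements) and AGAACA (a half-site of androgen response elements) on both strands. In Ptgs2 the reverse complement of TGACGT overlapped CACGTG just after the start site. Slco2a1 and Tgm4 hold TATAAA, at -29 and -30 from the start, and the Serpina1f window holds none of the 4. Among 32851 RefSeq windows of this length, 8.32% hold TATAAA, 7.15% CACGTG, 7.51% TGACGT and 19.0% AGAACA. None of the 4 motifs was found in the windows of all of Ptgs2, Serpina1f and Slco2a1, and the windows of the other genes high in pool 2 were not searched.

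Svs2 and a few other genes of seminal fluid followed another pattern, low in pool 1 and high in the other pools. Svs2, a main protein of seminal fluid, was at 9.93, 13.26, 12.61 and 12.95 in pools 1 to 4. In the wild type pools it ran from 4.11 to 12.93 with a median of 5.14, and array 6 held the high value. Its SD of 1.53 over the APT121 pools therefore compares with 2.89 over all wild type pools and 0.87 without arrays 5, 6 and 7, and the direction of the difference in spread turns with that choice. The variance ratio did not call it either way (adjusted p 0.953, and 0.468 without wild type pool 6).

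Svs5, another seminal vesicle protein, was nearest to Svs2 at a distance of 0.30 and was at 8.59, 12.28, 11.62 and 11.79. Svs4 was at 5.12, 7.71, 6.98 and 8.27. Pate4, a small secreted protein, was at 6.98, 11.53, 10.70 and 11.21. Pool 1 was the lowest for each of these. Cyp4a12a, a fatty acid hydroxylase of the kidney and other tissues, was at 3.13, 7.78, 6.51 and 7.05, and its neighbour Cyp4a12b at 3.20, 6.10, 5.36 and 6.06. The defensin gene Defb42 was at 3.16, 7.08, 4.38 and 6.07.

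None of these genes was called, and for Pate4, Svs5 and Cyp4a12a wild type array 6 held the high value. Over the 13 measured seminal vesicle markers the mean was 4.53, 5.44, 5.25 and 5.43 in pools 1 to 4. In the wild type pools the same mean ran from 3.36 to 7.21 with a median of 3.51. The median SD was 0.24 among the APT121 pools against 1.08 among the wild type pools, and 0.19 without wild type arrays 5, 6 and 7. The list was not low in pool 1 as a whole: 5 of the 13 were lowest there and 6 highest, the latter with means of 3.80 or less and ranges of 0.21 to 0.65. Svs2, Svs4, Svs5 and Pate4 were the 4 of the 13 with a 2-fold range, 9 lay below the median gene, and Sva, a seminal vesicle antigen, stayed at 2.60, 2.39, 2.40 and 2.49. Their part in the values of Pfkfb3 (6.08, 8.74, 7.19 and 8.19), a regulator of glycolysis, and Plau (5.50, 8.00, 6.60 and 7.38), the urokinase protease, was not tested, although both were lowest in pool 1 as well and high in wild type array 6.

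**Figure D3:**
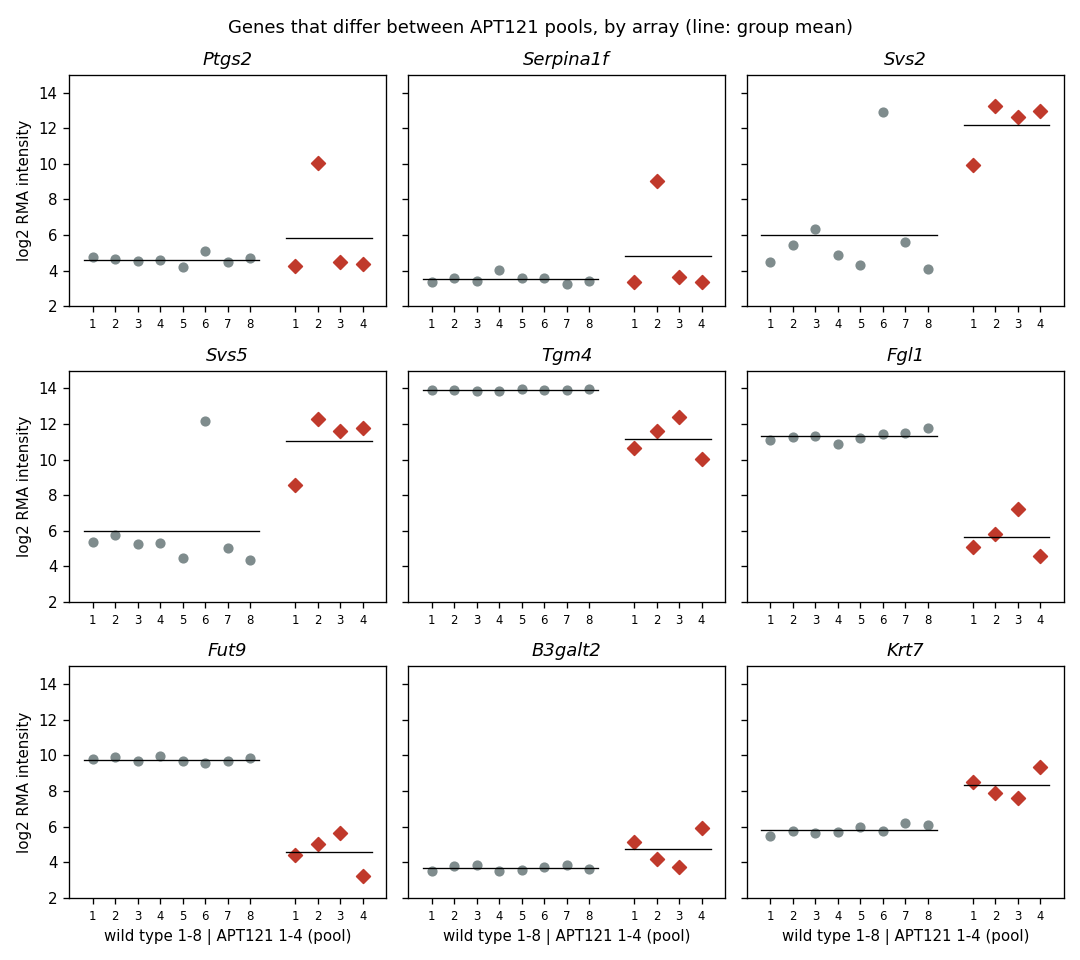
Log2 RMA intensity of 9 genes by array, grey circles for wild type pools 1 to 8 and red diamonds for APT121 pools 1 to 4, with a line at each group mean. Ptgs2 and Serpina1f are high in APT121 pool 2 alone, Svs2 and Svs5 are low in pool 1, Tgm4, Fgl1 and Fut9 are highest in pool 3 and lowest in pool 4, and B3galt2 and Krt7 run the other way.

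Tgm4, C1s2 and other genes listed for the anterior prostate were highest in pool 3 and lowest in pool 4. Tgm4, the transglutaminase of the copulatory plug, was at 10.63, 11.60, 12.42 and 10.04 in pools 1 to 4. In the wild type pools it ran from 13.85 to 13.98 with an SD of 0.05, against an SD of 1.05 among the APT121 pools (adjusted p 2.18e-05). Its wild type values were at the top of the scale: the highest gene on each array was at 13.78 to 13.98, and the 5 genes with a wild type mean of 13 or more had a median wild type SD of 0.05. Whether that narrows the wild type spread of Tgm4 was not tested. C1s2, a serine protease related to complement C1s, was at 7.16, 8.78, 9.78 and 5.75, a 16.4-fold range with an SD of 1.78 against 0.11 (adjusted p 1.87e-06). Both genes and C1s1 (5.89, 6.45, 7.29 and 4.95, adjusted p 0.000738) kept the variance ratio call under each alternative run for it, including the removal of any 1 pool.

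Fgl1, a fibrinogen-like secreted protein, was at 5.08, 5.83, 7.22 and 4.57 (SD 1.15 against 0.27, adjusted p 0.0136). That call was lost without pool 3 (0.484), without pool 4 (0.0738) and without wild type arrays 5, 6 and 7 (0.0692). Fut9, a fucosyltransferase of the Golgi, was at 4.41, 5.04, 5.62 and 3.24 (SD 1.02 against 0.13, adjusted p 0.000621, and 0.13 without pool 4). The pool order was the same in Fgl1, Fut9, Tgm4 and C1s2: pool 4 lowest, then 1, 2 and 3.

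Genes nearest to Fgl1 were Gsdma, a gasdermin, at 5.44, 6.22, 7.30 and 5.13 (distance 0.34), Tgm4 (0.41) and Fcrls, a myeloid receptor-like gene, at 4.81, 5.26, 6.30 and 4.13 (0.48). Those nearest to Fut9 were C1s1 (0.25), the galactosidase-like gene Glb1l3 at 7.28, 7.68, 8.14 and 6.03 (0.27) and Srpx at 8.45, 9.55, 9.66 and 7.50 (0.40). Gsdma and Glb1l3 were called (adjusted p 0.00183 and 0.000704), but not without pool 3 for Gsdma (0.228) or without pool 4 for Glb1l3 (0.389). Fcrls was called as well, but not without pool 3 (0.422) or pool 4 (0.224). Pbsn, probasin, the androgen-dependent secretory protein whose promoter also drives T121, was at 9.12, 9.66, 10.30 and 9.03 against a wild type SD of 0.07 (adjusted p 0.00799, and 0.366 without pool 3). The repressor gene Klf12 was at 4.50, 5.44, 6.22 and 4.35 (adjusted p 0.0227), a call lost without pool 3 (0.355), pool 4 (0.0913) or wild type pool 5 (0.0501).

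Of 14 anterior prostate genes listed for an earlier result on these arrays, 11 were highest in pool 3 and 10 lowest in pool 4, and 10 had a 2-fold range against 1.46% of all genes. Their median SD was 0.77 among the APT121 pools and 0.14 among the wild type pools, and 8 were called by the variance ratio against 0.316% of all genes. The list was chosen on these samples and is not independent evidence. Atf6, a sensor of unfolded proteins in the same list, stayed at 8.68, 8.58, 8.57 and 8.64. Of 28 prostate secretory proteins, 9 had a 2-fold range and 4 were called. Over the 8 wild type pools 13 had such a range. The SD was higher among APT121 pools in 13 of the 28 (46.4%), against 40.4% of all genes. The pools were not ordered alike: 7 were highest in pool 3 and 11 in pool 4. The mean of the list was 7.11, 7.34, 7.39 and 7.29 in pools 1 to 4. The list includes Pate4, at 6.98, 11.53, 10.70 and 11.21, which lowers the mean of pool 1. Other androgen-regulated genes did not follow Pbsn, since 13 of 22 were highest in pool 4, and Tmprss2, a membrane protease under androgen control, was even at 8.32, 8.19, 8.19 and 8.34.

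Other genes ran the other way, with high values in pool 4 or in pools 1 and 4. B3galt2, a galactosyltransferase, was at 5.16, 4.17, 3.73 and 5.94 (SD 1.00 against 0.14, adjusted p 0.000764). Serpinb11, an intracellular serpin, was at 5.26, 3.78, 3.76 and 5.35, so that pools 1 and 4 were high and pools 2 and 3 low. Its adjusted p was 0.00282, and 2.97e-06 in the deviation fit, and both calls held under each alternative run. The B3galt2 call of the variance ratio also held under each alternative run for that test. The deviations of Serpinb11 from its APT121 mean were nearly equal in size, which by itself lowers the p of the deviation fit. That p therefore does not measure the size of the spread alone. The same split of the pools was seen for Cenpf, Nnt and Cbr2 below, which only the deviation fit called.

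Among ion transport genes, the epithelial sodium channel subunit Scnn1a was at 9.98, 9.34, 8.12 and 9.70, the anion exchanger Slc26a4 at 5.95, 5.05, 4.53 and 6.24, and the sodium pump regulator Fxyd4 at 7.00, 6.22, 5.40 and 7.17. Pool 3 was lowest in each, and the highest was pool 1 for Scnn1a and pool 4 for the others. Scnn1a and Slc26a4 each had an adjusted p of 0.0227 and Fxyd4 one of 0.0095, and without pool 3 these were 0.83, 0.24 and 0.331. Slc26a4 was also lost without pool 4 (0.157), wild type pool 2 (0.0517) or wild type pool 5 (0.0501), and Scnn1a without wild type pool 5 (0.0501). Without wild type arrays 5, 6 and 7 the adjusted p was 0.1 for Scnn1a and 0.053 for Fxyd4.

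Treh, the enzyme that splits trehalose, was at 6.57, 5.94, 5.47 and 7.23 (adjusted p 0.00142, and 0.0718 without pool 4). Chad, a matrix protein first found in cartilage, was at 8.58, 7.80, 7.12 and 9.15 (adjusted p 0.0221, and 0.248 and 0.238 without pool 3 or 4). Wfdc2, a secreted protease inhibitor of glandular epithelia, was at 6.23, 5.92, 6.04 and 7.74 (adjusted p 0.0221, and 0.998 without pool 4 or 0.0965 without wild type arrays 5, 6 and 7). In each the high pool was 4.

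Keratin and cornified envelope genes had ranges of a like size and were not called. Krt7, a keratin of simple epithelium, was at 8.48, 7.91, 7.60 and 9.34 (adjusted p 0.092). Sprr1a, a cornified envelope protein, was at 9.70, 8.45, 8.67 and 10.51, and Spink5, a protease inhibitor of stratified epithelium, at 8.70, 7.26, 7.49 and 9.32, with wild type SDs of 0.55 and 0.53. Basal keratins ran the other way: Krt5 was at 6.73, 7.14, 7.37 and 6.19 and Krt15 at 5.70, 6.07, 6.53 and 5.16. Of 31 basal and stratified epithelium markers 3 had a 2-fold range, and the means of the list were 5.55, 5.56, 5.59 and 5.58 in pools 1 to 4. Of 17 luminal markers, 10 were highest in pool 4 and 11 lowest in pool 3, with a median SD of 0.12 against 0.11 among wild type pools.

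Proliferation genes were expressed in every APT121 pool, and their mean was higher in pools 2 and 3 than in 1 and 4. The 62 mitosis genes had a mean of 7.10, 7.55, 7.45 and 6.90 in pools 1 to 4. In 40 of them pool 2 was highest and in 50 pool 4 was lowest. Their median SD was 0.33 among the APT121 pools and 0.20 among the wild type pools, and the SD was higher among APT121 pools in 55 of 62, against 8063 of 19935 genes in all. The list was at a low level in the wild type pools, with a mean of 4.48 to 4.73. Whether that level changes the wild type spread of these genes was not tested. Of the 62, 4 (6.45%) had a 2-fold range against 1.46% of all genes, and 9 (14.5%) had a range under 0.5 against 87.1%.

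Birc5, survivin, a protein of the chromosomal passenger complex, was at 5.61, 6.16, 6.01 and 4.93 (adjusted p 0.0227, and 0.754 without pool 4, 0.05 without wild type pool 2, 0.0503 without wild type pool 5 and 0.067 without wild type arrays 5, 6 and 7). Sgo1, which protects the cohesion of sister chromatids, was at 6.17, 6.42, 6.41 and 5.18 and was not called (0.0755). Cenpf, a kinetochore protein, was at 6.62, 7.41, 7.46 and 6.67, and was called by the deviation fit (adjusted p 0.00579) but not without any 1 of the APT121 pools (0.0702 to 0.137) and not by the variance ratio (0.204).

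The 53 DNA replication and E2F target genes were more even than the mitosis genes, with a mean of 7.74, 8.00, 7.87 and 7.58. Here 42 were highest in pool 2 and 46 lowest in pool 4. The median SD of 0.19 compares with 0.18 among the wild type pools and 0.12 over all genes. Of the 53, 0 had a 2-fold range, against 1.46% of all genes, and 32 (60.4%) had a range under 0.5, against 87.1%. Cdc6, which loads the replicative helicase, was at 7.77, 7.68, 7.92 and 7.02. Mcm6, a helicase subunit, was at 10.39, 10.51, 10.45 and 10.28 and the clamp Pcna at 10.58, 10.83, 10.89 and 10.50. Rpa1, which coats single-stranded DNA, stayed at 9.04, 9.05, 8.98 and 8.94. Neither test called any of the 53 genes more variable among the APT121 pools, where 0.406% and 0.316% of all genes were called. At an unadjusted p of 0.05, limma's deviation fit gave 9 and the variance ratio 8 of them, against 1222 and 831 of all genes. Rb1, whose protein T121 binds, was at 8.12, 8.34, 8.03 and 8.11.

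**Figure D4:**
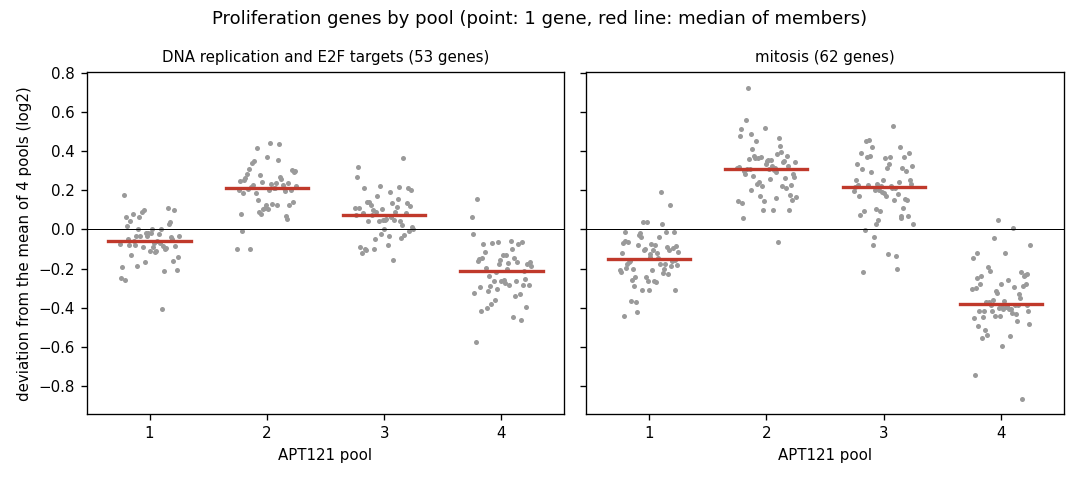
Each grey point is 1 gene, plotted by APT121 pool against its deviation from its own mean over the 4 pools on the log2 scale, for 53 DNA replication genes (left) and 62 mitosis genes (right), and red lines are medians of the members. Most members of both lists are highest in pool 2 and lowest in pool 4, and the mitosis genes are spread more widely.

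Most myeloid markers were highest in pool 3. The 30 myeloid markers had a mean of 5.72, 5.70, 6.02 and 5.39 in pools 1 to 4, and 25 were highest in pool 3 and 20 lowest in pool 4. Lyz2, the lysozyme of macrophages, was at 8.15, 8.41, 8.89 and 7.02 (adjusted p 0.0385). This call was lost without pool 3 (0.161) or 4 (0.866) and without wild type pool 1, 2, 4, 5, 6 or 7 (0.0519 to 0.0782) or all of 5, 6 and 7 (0.147). Adgre1, the macrophage marker F4/80, was at 6.33, 5.92, 7.01 and 5.64 and was not called (0.0879). In all, 6 of the 30 markers had a 2-fold range.

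MHC class II genes and interferon genes also had their highest mean in pool 3. H2-Ab1, a class II chain, was at 7.82, 7.32, 8.82 and 7.43, and Cd74, the invariant chain that guides class II molecules, at 7.79, 7.52, 8.57 and 7.64. Neither was called (0.192 and 0.0697). Of 15 class II presentation genes, 4 (26.7%, against 1.46% of all genes) had a 2-fold range and 9 were highest in pool 3. The 34 interferon response genes had a mean of 6.18, 6.13, 6.66 and 6.42, and in each of the 34 either pool 3 (21 genes) or pool 4 (13 genes) was highest.

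Iigp1, an interferon-induced GTPase, was at 3.41, 3.45, 4.93 and 3.69 (adjusted p 0.0385, and 0.995 without pool 3), a call also lost without wild type pool 1, 3, 4, 5, 6 or 7 (0.0532 to 0.0782) or all of 5, 6 and 7 (0.143). Ifit3, another interferon-induced gene, was at 4.43, 4.65, 5.76 and 4.89, while Ddx58, the RNA sensor RIG-I, stayed at 8.36, 8.35, 8.45 and 8.48. Lymphocyte markers were low, with 25 of 27 below the median gene. A range under 0.5 was seen for 24 of the 27 (88.9%, against 87.1% of all genes) and a 2-fold range for 2 (7.41%, against 1.46%). One of these was Jchain, the joining chain of secreted antibodies, at 4.20, 3.29, 3.56 and 5.35, highest in pool 4.

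Stromal genes were lowest in pool 4. The 20 smooth muscle markers had a mean of 8.66, 8.88, 8.86 and 8.52, with 17 lowest in pool 4, and the 27 fibroblast and matrix markers one of 7.02, 7.05, 7.18 and 6.81, with 21 lowest in pool 4. Their median SDs were 0.18 and 0.21, against 0.11 and 0.16 among the wild type pools. Acta2, smooth muscle actin, was at 11.70, 11.84, 11.88 and 11.43, and Pgm5, a muscle adhesion protein, at 9.09, 9.72, 9.47 and 8.40 (adjusted p 0.0231). The Pgm5 call was lost without pool 2 (0.0693) or 4 (0.73) and without wild type pool 5 (0.0508) or 7 (0.0505) or all of 5, 6 and 7 (0.135).

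Dcn, the collagen-binding proteoglycan decorin, was at 10.03, 10.16, 10.41 and 9.26 (adjusted p 0.0385), a call lost without pool 3 (0.125), pool 4 (0.923) or any 1 of the wild type pools (0.0526 to 0.0782), and at 0.129 without arrays 5, 6 and 7. Fbln2, a basement membrane protein, went the other way at 7.13, 6.81, 6.83 and 8.18 (adjusted p 0.00354, and 0.931 without pool 4). Ncam1, an adhesion molecule of nerve and neuroendocrine cells, was at 6.89, 7.83, 7.71 and 6.36 (adjusted p 0.0258, lost without pool 2, 3 or 4 at 0.0627, 0.051 and 0.4 and without wild type pool 5 at 0.0508 or all of 5, 6 and 7 at 0.0728). It was the only 1 of 15 neuroendocrine markers with a 2-fold range. Markers of myeloid, smooth muscle and fibroblast cells thus had a higher mean in pool 3 than in pool 4. So did the anterior prostate genes listed for an earlier result. The prostate secretory list had means of 7.39 and 7.29 in pools 3 and 4, though 7 of its members were highest in pool 3 and 11 in pool 4. The part of these cell markers in the values of the anterior prostate genes was not tested.

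**Figure D5:**
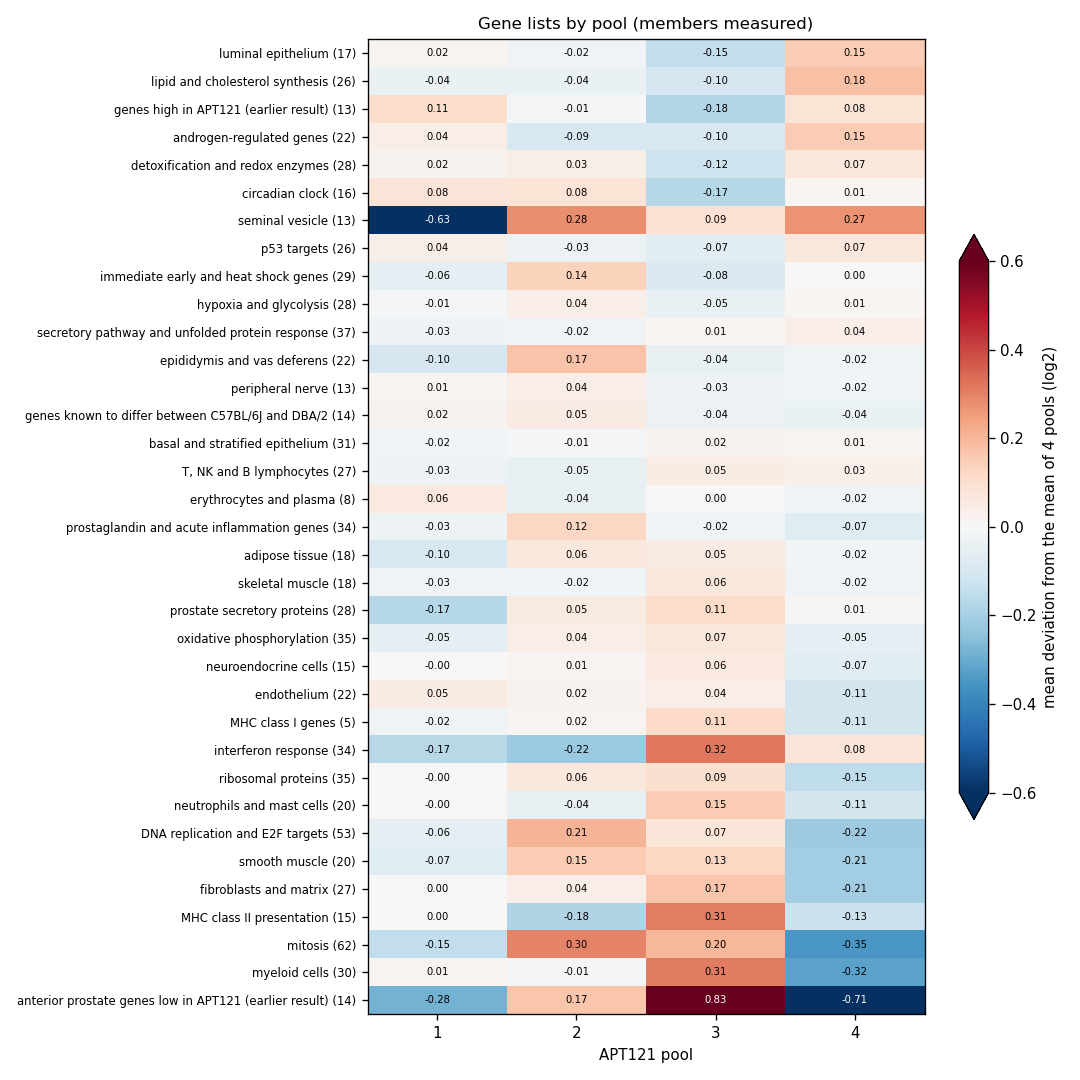
Rows are the 35 gene lists with the number of members measured, columns the 4 APT121 pools, and colour and number the mean deviation of the members from their mean over the 4 pools on the log2 scale. The anterior prostate list runs from 0.83 in pool 3 to -0.71 in pool 4, the seminal vesicle list is at -0.63 in pool 1, and lists such as the secretory pathway stay within 0.04 of 0.

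The 18 adipose markers had a median SD of 0.19, above the 0.12 of all genes, against 0.50 among the wild type pools and 0.28 without arrays 5, 6 and 7, and 2 (11.1%, against 1.46% of all genes) had a 2-fold range among APT121 pools. Car3, a carbonic anhydrase abundant in fat, was at 6.14, 7.70, 7.69 and 6.26, and Cyp2e1, a cytochrome P450, at 4.47, 6.12, 5.99 and 4.61, so that pools 2 and 3 were high in both. Of 26 lipid and cholesterol synthesis genes, 21 were highest in pool 4 and 0 had a 2-fold range. Because the mice were of a mixed cross, 14 genes known for strain differences between C57BL/6J and DBA/2 were examined. Of these, 0 had a 2-fold range, against 1.46% of all genes, and 10 (71.4%) had a range under 0.5, against 87.1%. Their median SD was 0.18, against 0.12 over all genes and 0.16 among the wild type pools. Nnt, the mitochondrial transhydrogenase that C57BL/6J mice lack, was at 8.43, 7.83, 7.66 and 8.60, and was called by the deviation fit (adjusted p 0.00634, but 0.0652, 0.137 and 0.143 without pool 2, 3 or 4) and not by the variance ratio (0.102). Cbr2, a carbonyl reductase, was at 10.64, 9.84, 9.65 and 10.93 and likewise was called only by the deviation fit (adjusted p 0.0128, but 0.0938, 0.221 and 0.232 without pool 2, 3 or 4; variance ratio 0.141).

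Genes that lay side by side on a chromosome shared a pattern in some cases. Among the 291 genes with a 2-fold range, 35 (12.0%) had a neighbour in RefSeq gene order that was also among them, in 19 pairs. In 11 of these pairs both genes had the same highest and the same lowest pool. They included H2-Ab1 with H2-Aa, C1s1 with C1s2, and Cyp4a12a with Cyp4a12b. In the other pairs the highest or the lowest pool differed, and the correlation over the 4 pools went down to -0.828. How many such pairs genes taken at random would give was not tested. Near-identical copies such as Cyp4a12a and Cyp4a12b, or C1s1 and C1s2, may share probes, so their values may not be separate measurements.

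Oxidative phosphorylation genes were alike over the 4 pools. Of 35 such genes, 34 (97.1%) had a range under 0.5, against 87.1% of all genes, and 0 had a 2-fold range. The median SD was 0.07 against 0.11 among the wild type pools, or 0.08 without wild type arrays 5, 6 and 7. Of 37 genes of the secretory pathway and unfolded protein response, 32 (86.5%) had a range under 0.5 and the median SD was 0.10 against 0.15. Of 35 ribosomal protein genes 32 (91.4%) had a range under 0.5, but their median SD of 0.12 was above the 0.07 of the wild type pools, and 31 were lowest in pool 4. The shares of the last 2 lists lie near that of all genes.

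Uqcrc1, a core subunit of respiratory complex III, was at 9.81, 9.82, 9.80 and 9.82, and the translation factor Eif3f at 10.90, 10.90, 10.89 and 10.89. Rpl28 stayed at 12.14, 12.14, 12.13 and 12.11, whereas Rps9 was at 10.82, 11.16, 11.03 and 10.36. Of 13 genes listed for being high in APT121 in an earlier result on these arrays, 0 had a 2-fold range, against 1.46% of all genes. They were not among the even genes: 5 (38.5%) had a range under 0.5, against 87.1% of all genes. Their median SD was 0.26, against 0.12 over all genes and 0.31 among the wild type pools. Psca, a surface antigen of prostate and bladder epithelium, was the widest of the 13 at 11.10, 10.91, 10.48 and 11.37. The vitamin D receptor gene Vdr was at 6.53, 6.29, 5.96 and 6.43.

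Genes with less spread among the APT121 pools than among the wild type pools were few and turned on the wild type arrays. Nudt10, a phosphohydrolase of inositol pyrophosphates, was at 7.93, 7.91, 7.89 and 7.94, against 5.35 to 8.28 in the wild type pools (adjusted p 0.0221). That call was lost without any 1 APT121 pool (0.144 to 0.271), and it was lost (0.19) when the wild type spread was taken within arrays 1 to 4 and within arrays 5 to 8. The deviation fit also called Itln1, an intestinal lectin (adjusted p 0.0203), Stmn2, a neuronal protein (0.0451), and Rec8, a meiotic cohesin (0.0286), whose APT121 values lay between 3.04 and 3.39, 3.61 and 4.06, and 5.86 and 6.34. None of these 3 was called with the wild type spread taken within those sets of arrays (0.535, 0.618 and 0.784), and leaving out single arrays also ended their calls.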

How the data were processed

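Total RNA of 4 APT121 and 8 wild type pools, each of 2 mice, was hybridised to Affymetrix GeneChip Mouse Gene 1.0 ST arrays, per the labels. The deposited values are 1 linear intensity per transcript cluster and array, normalised by the authors with RMA (background correction, quantile normalisation, probe summary), per the submitters' processing notes. Its software version is not given in the sources used here. Since RMA equalises the distributions of the arrays, shifts of total RNA are not seen. Array medians lay between 32.1 and 33.7, and precision is limited by how few arrays there are.

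Log2 was taken here. Of 28815 clusters, 21780 have 1 gene symbol in the platform annotation, 1605 several and 5430 none; only the first were used, with the cluster of the highest mean for 998 genes with several, which left 19935 genes. No low-value filter was applied. Of these genes, 19853 matched RefSeq by gene ID.

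Spread was compared with limma 3.58.1 in R 4.3.3, fitted across all genes and 12 arrays: lmFit and eBayes on absolute deviations from the genotype mean times the square root of n/(n-1), genotype as the only term, two-sided, Benjamini-Hochberg, threshold 0.05. The variance ratio (two-sided F test, squeezeVar on the wild type variances, the same adjustment) was added after the data were seen. Both were tested on simulated data, where 30.4% of the calls of the deviation fit and 6.83% of those of the variance ratio were false. Both shares lie above the threshold of 0.05. Of the genes given a 4-fold SD there, the deviation fit recovered 16.4% and the variance ratio 43.3%. Whether these rates hold for the deposited arrays was not tested. Pools are separate pairs of mice, and p-values measure only how these pools differ.

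The members, the 35 gene lists (959 entries, 855 measured, 10 names matched through synonyms) and the rule for named genes were chosen with earlier results of these data known. The rule took the 5 markers, the 20 genes with the largest SD over the APT121 pools, the 10 more and 5 less variable genes with the largest difference in deviation, the 2 widest members and the narrowest of each list, the 10 steadiest genes with a mean of 9 or more, a fixed set (Mki67, Pcna, Rb1, Psca, Pbsn, Krt5, Krt8, Acta2 and Vdr) and the 3 genes nearest to each marker, 146 genes in all; some are given only in counts. Ly6f, Kcnj16, Fxyd4, Scnn1a, Spink5, Wfdc2 and Cenpf were chosen after their values were seen, as were the neighbours H2-Aa and the promoter genes. Same-numbered APT121 and wild type arrays had deviations correlated across genes at 0.04, 0.04, 0.12 and -0.01, so replicate numbers were not taken to pair them.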

Additional observations from a re-analysis of the deposited data

Results flagged for a closer look

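A value was set apart where 1 pool's gap to the nearest other pool took an unusually large share of the range of its group (Dixon's ratio, with its 95% critical value), among the 81 genes named. Chance flags about 1 in 20 groups, and over all 19935 genes 982 (4.93%) met the mark among the APT121 pools.

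In 6 genes APT121 pool 2 was far above the other pools. The gap took 0.966 of the range for Ptgs2, 0.951 for Serpina1f, 0.96 for Fads2, 0.894 for Kcnj16, 0.882 for Abcg2 and 0.868 for Ly6f. The excess of pool 2 over the mean of the other pools ran from 0.80 for Fads2 to 5.68 for Ptgs2 on the log2 scale.

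In the wild type pools, array 6 stood above the rest in genes that also differed between APT121 pools. The ratio was 0.901 for Pate4, 0.842 for Cyp4a12a, 0.823 for Svs5, 0.762 for Defb42, 0.757 for Cyp4a12b, 0.747 for Svs2, 0.742 for Pfkfb3, 0.708 for Svs4, 0.628 for Plau, 0.573 for Nr4a3 and 0.55 for Slc26a4. Wild type array 6 thus sets much of the reference spread of the seminal vesicle genes that were low in APT121 pool 1. Wild type array 4 was high for Serpina1f (0.544), and wild type array 1 was low for Car3 (0.575).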

How the results depend on the processing

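The median SD over the APT121 pools lay between 0.11 and 0.13 under the alternatives run, except on the scale of log2(intensity + 16), where it was 0.0786. The 81 genes called more variable by the deviation fit became 51 without the lower 50% of genes by mean, 30 with deviations from the median, 21 with squared deviations, 123 with the trend and robust options, 10 or 23 with wild type arrays 1 to 4 or 5 to 8 alone and 11 without arrays 5, 6 and 7. Without 1 array at a time they numbered 9 to 120. The 21 genes called less variable became 8, 0, 0, 9, 13 and 1 under the same settings from the median onwards, 2 with wild type deviations taken within arrays 1 to 4 and 5 to 8, and 2 to 20 without 1 array at a time. Where 0 were called, 324 (squared deviations) and 1140 (trend and robust) genes had an unadjusted limma p under 0.05 in that direction. With replicate number as a block, 3 genes were called more variable and 12 less; the numbers do not pair the samples.

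The 291 genes with a 2-fold range became 151 with the added 16 and 165 without the lower 50% of genes, and 135 to 252 without 1 APT121 pool. The variance ratio gave 143 more variable genes with the added 16, 30 without the lower 50% of genes, 40 without wild type arrays 5, 6 and 7, and 22 to 86 without 1 array. Its 1 less variable gene became 7 with the added 16, 2 after repeated quantile normalisation, 0 (603 at an unadjusted p under 0.05) with the wild type variance within arrays 1 to 4 and 5 to 8, and 1 to 3 without 1 array.

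Directions turned for few of the genes named, mostly without the pool in which the gene was high. Over the fits without 1 array, the difference in deviation ran from -0.0958 (without APT121 pool 2) to 2.94 for Ptgs2, from -0.0337 to 2.92 for Serpina1f, from -0.00308 to 0.779 for Kcnj16, and from -0.0193 (without pool 4) to 0.8 for Wfdc2. The log2 SD ratio ran from -1.07 to 4.14 for Ptgs2, from -0.34 to 4.36 for Serpina1f, from -0.06 to 3.24 for Abcg2, from -0.357 to 2.98 for Kcnj16, from -0.12 to 2.56 for Wfdc2, and from -0.118 (without pool 3) to 2.42 for Iigp1. For Svs2 the difference in deviation ran from -1.67 to 0.583 and the log2 SD ratio from -2.74 to 1.36, both highest without wild type array 6. The Svs2 difference was 0.605 with wild type arrays 1 to 4 alone, 0.554 without arrays 5, 6 and 7 and 0.341 with the replicate block, and its log2 SD ratio was 1.41 without arrays 5, 6 and 7. For Rec8 the difference was 0.0104 with wild type arrays 5 to 8 alone. The cause of these changes was not tested, apart from the fewer arrays. Over all named genes tested, called or not, 734 values of the deviation fit kept their direction and their side of the threshold, 229 lost a call, 47 gained one and 9 turned, against 564, 88, 2 and 8 for the variance ratio.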
